A study of Mus musculus with 12 samples.

Results

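The net difference between fetal and adult muscle was read from 8 of the 12 libraries of a mouse series, the 4 libraries from 7 wks old mice against the 4 from E18.5 fetuses, over the 19276 genes with enough counts to be tested out of 55450 counted. All libraries came from the tibialis anterior (TA), the muscle on the front of the shin that lifts the foot, of wild-type (WT) mice on the 129Pas background, with 4 mice at each age. The labels name no transgene, deletion or treatment in either group, so age was the only labelled difference: E18.5, an embryonic age shortly before birth, and 7 weeks, when the muscle is adult. The study followed splicing through postnatal muscle development. A group of 4 mice at 2 wks also entered the same fit and is used below only to say where a gene stood on the way.

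Skeletal muscle is built in the fetus from embryonic and neonatal forms of many proteins, and after birth these give way to adult forms encoded by other genes of the same families. The fetal fibre is small, is still being joined by dividing precursors and contracts slowly. The adult TA of the mouse is a fast muscle, rich in glycolytic enzymes and in the membranes that release and recapture calcium. A change of isoform therefore means that one gene of a family is turned down while its relative is turned up. A count per gene can follow this for the tissue as a whole and not for each cell type. A change of splicing within one gene, such as that of *Dnm2*, cannot be seen in these counts.

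Library totals ran from 71307973 to 123449246 counts in the 8 libraries. At 7 wks the 20 most abundant genes took 36.4% to 37.8% of all counts, against 13.7% to 16.1% at E18.5, and mitochondrially encoded genes took 12.9% to 16.0% against 3.27% to 7.58%. Levels are therefore given as TMM CPM, counts scaled to a fixed library size after TMM normalisation, which sets the bulk of genes rather than the total equal between libraries. The median log2 fold change over all tested genes was -0.09 with TMM and -1.36 when libraries were scaled to their totals, so a smaller difference is relative to the chosen scale.

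Some libraries carried RNA of other tissues. E18.5 replicates 3 and 4 held *Ucp1*, which marks brown fat, at 224.3 and 922.9 TMM CPM, against 0.305 and 0 in replicates 1 and 2 and at most 0.33 at 7 wks. All 8 genes of a brown adipocyte list, drawn up after the data were seen, and all 6 of a general adipocyte list were lower at 7 wks. Without these 2 libraries 3 genes of each list were lower and 1 was higher, with medians of -0.63 in place of -3.54 for the brown and -1.53 in place of -5.69 for the general list. The summed adipocyte level was 232.3, 179.0, 1971 and 2699 TMM CPM in E18.5 replicates 1 to 4 and 309.1 to 410.8 at 7 wks. E18.5 replicate 2 held the most cartilage and epidermis, with *Col2a1*, the main cartilage collagen, at 73.0 TMM CPM. In 7 wks replicate 1 the 20 extracellular matrix genes summed to 6253 TMM CPM, against 1819 to 3053 in the other 3.

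The tissue label was checked with markers. All 8 myofibre markers were higher at 7 wks and summed to 123253 to 168284 TMM CPM, against 13385 to 23819 at E18.5, so the markers were present at both ages and lower in the fetal libraries. Among them *Acta1*, *Ckm*, *Des*, *Tnnt3* and *Tnnc2* also belong to the isoform pairs followed below, so their rise is no separate result. Of genes that mark the position of a limb, *Hoxc10*, a hindlimb gene, stood at 1.69 to 5.91 TMM CPM at E18.5 and 45.7 to 73.4 at 7 wks. *Tbx5*, the forelimb selector, stood at 2.67 to 6.01 TMM CPM in the fetal libraries and at most 0.0776 in the adult ones. *Tbx4*, its hindlimb counterpart, was at 2.42 to 7.98 at E18.5 and 1.78 to 2.97 at 7 wks, and *Pitx1* was at most 0.811 at either age. In bulk RNA, fewer cells of a type and less RNA per cell cannot be told apart.

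**Figure D1:**
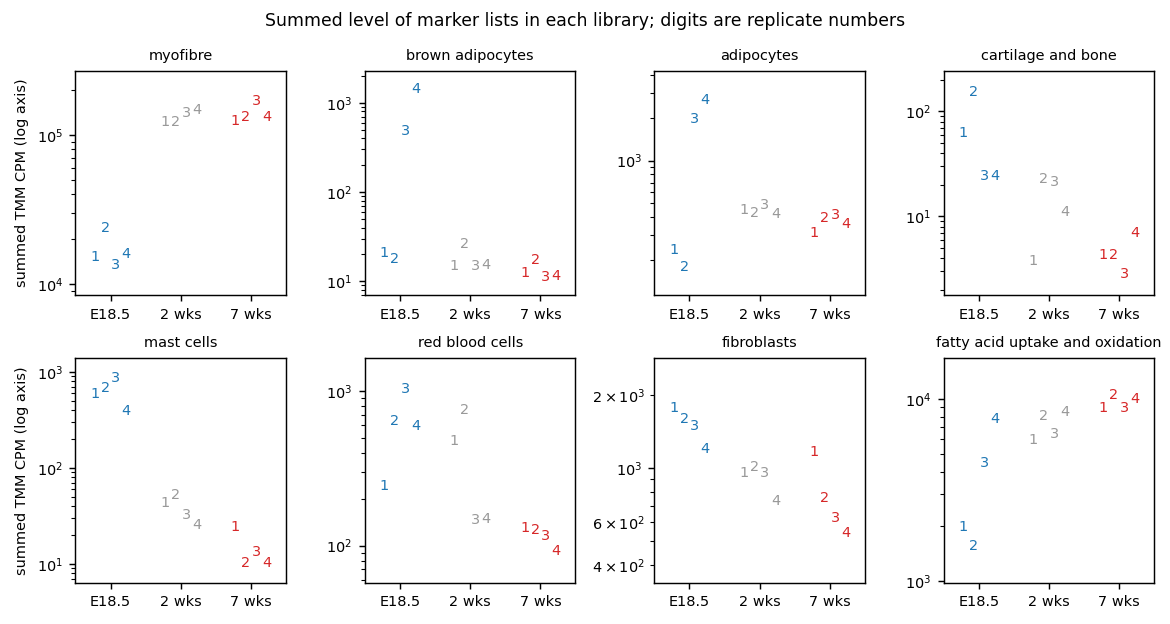
Summed TMM CPM (log axis) of 7 marker lists and of the fatty acid uptake and oxidation genes in each library, by age, with digits giving replicate numbers. Replicates 3 and 4 of E18.5 stand above all other libraries for both adipocyte lists, and for the fatty acid genes they lie between the other fetal libraries (1978 and 1572) and the adult ones (8867 to 10491).

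Of the 19276 tested genes, 13755 (71.4%) differed between 7 wks and E18.5 in edgeR's quasi-likelihood test at a Benjamini-Hochberg adjusted p of 0.05, 6610 (34.3%) higher and 7145 (37.1%) lower at 7 wks. The ranges of the 4 adult and 4 fetal libraries did not overlap for 12226 genes (63.4%), 30.2% of all tested genes being higher and 33.3% lower at 7 wks in this sense. With a fold change required to exceed 2, 3460 (17.9%) were higher and 4114 (21.3%) lower. With libraries scaled to their totals 11.9% were called higher and 69.0% lower. A call by itself is thus the common case, and the genes below are read by how far they moved and by what took their place. The gene lists below were chosen with earlier results of these data known. Each list count stands beside 34.3% of all tested genes higher, 37.1% lower and a median log2 fold change of -0.09.

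Myosin heavy chain, the motor that pulls on actin, gave the widest exchange. *Myh3*, the embryonic form, stood at 1600, 2281, 1506 and 1617 TMM CPM in the 4 fetal libraries and at 7.20, 6.16, 6.91 and 7.73 in the 4 adult ones. *Myh8*, the neonatal (perinatal) form, stood at 5548, 7290, 4849 and 5665 at E18.5 and at 12, 9.49, 9.46 and 13.2 at 7 wks. Both were among the most abundant fetal transcripts and kept a small, measurable level in the adult. *Myh4*, which encodes the fastest adult form, IIb, went the other way, from 31.4, 46.7, 26.2 and 29.6 TMM CPM to 55921, 37419, 37502 and 44903. *Myh1*, which encodes IIx, rose from 50.0, 47.1, 63.5 and 51.9 to 19225, 23196, 16766 and 18993. None of the 4 genes overlapped between ages in any library. The log2 fold change was -7.97 ± 0.30 (SE) for *Myh3*, -9.05 ± 0.33 for *Myh8*, 10.36 ± 0.39 for *Myh4* and 8.52 ± 0.56 for *Myh1*, and the largest of the 4 edgeR Benjamini-Hochberg adjusted p-values was 2.69e-08.

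The 4 genes lie close together on chromosome 11 and share stretches of sequence, so a small part of their reads may be assigned to a neighbour. Their promoters are shown because these genes move together and in opposite directions. The 250 bases before each RefSeq transcription start (GRCm38.p6, all on the + strand) are printed 5′ to 3′, with capitals marking TATAAA, the E-box CANNTG that myogenic factors such as MyoD and myogenin can bind, and the MEF2 site, all searched on both strands.
Myh3, chr11:67078050-67078299: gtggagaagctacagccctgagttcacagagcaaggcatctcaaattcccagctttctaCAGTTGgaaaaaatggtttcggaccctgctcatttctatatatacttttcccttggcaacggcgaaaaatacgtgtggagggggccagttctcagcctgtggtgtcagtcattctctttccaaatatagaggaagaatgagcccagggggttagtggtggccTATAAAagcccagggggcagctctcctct
Myh8, chr11:67276874-67277123: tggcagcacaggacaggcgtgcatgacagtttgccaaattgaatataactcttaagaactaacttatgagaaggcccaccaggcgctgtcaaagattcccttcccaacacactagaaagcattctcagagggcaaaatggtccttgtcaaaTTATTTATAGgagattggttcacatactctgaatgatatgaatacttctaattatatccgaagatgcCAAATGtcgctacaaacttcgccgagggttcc
Myh4, chr11:67237562-67237811: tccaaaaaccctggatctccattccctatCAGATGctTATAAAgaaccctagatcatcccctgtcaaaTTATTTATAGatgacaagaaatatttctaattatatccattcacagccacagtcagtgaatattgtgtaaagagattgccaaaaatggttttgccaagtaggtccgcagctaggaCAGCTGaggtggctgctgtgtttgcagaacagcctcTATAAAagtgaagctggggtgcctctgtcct
Myh1, chr11:67199852-67200101: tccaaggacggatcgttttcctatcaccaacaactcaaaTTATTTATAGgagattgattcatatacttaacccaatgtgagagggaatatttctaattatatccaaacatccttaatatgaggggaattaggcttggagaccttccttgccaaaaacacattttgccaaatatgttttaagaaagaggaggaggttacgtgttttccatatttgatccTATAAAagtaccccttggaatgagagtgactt
*Myh8*, *Myh4* and *Myh1* each held 1 MEF2 site, which 2.92% of 32841 promoters of this length hold, and *Myh3* held none. TATAAA was found in all 4 of them and in 12.4% of all promoters, at 29 bases before the start in *Myh3*, 31 in *Myh4* and 32 in *Myh1*. In *Myh8* the TATAAA match lay within the MEF2 site. An E-box, present in 66.2% of all promoters, was found in *Myh3*, *Myh8* and *Myh4* and not in this window of *Myh1*. A match is a run of letters and not a measured site, and the 1 neonatal and both adult promoters had the MEF2 letters in common although the genes moved in opposite directions.

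Exchange between related genes was followed in 47 pairs, each an earlier and a later member of a family or pathway. They were chosen from general knowledge of muscle and with earlier results of these data known. For each library the reads per kilobase of merged exons of the later member were divided by those of the earlier one, a ratio that does not depend on how libraries are scaled. In 34 of the 47 pairs the earlier member was called lower and the later member higher at 7 wks. Of the later members 45 were higher, against 34.3% of all genes, and of the earlier members 36 were lower, against 37.1%. The pairs were picked for these directions, so the counts describe them and are no test. In bulk RNA a ratio can also move with the mix of cell types, and the part of cell composition in these shifts was not tested. In 46 pairs the ratios of the 4 adult libraries lay wholly above those of the 4 fetal ones, and the median shift over the 47 pairs was 5.01 on the log2 scale.

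**Figure D2:**
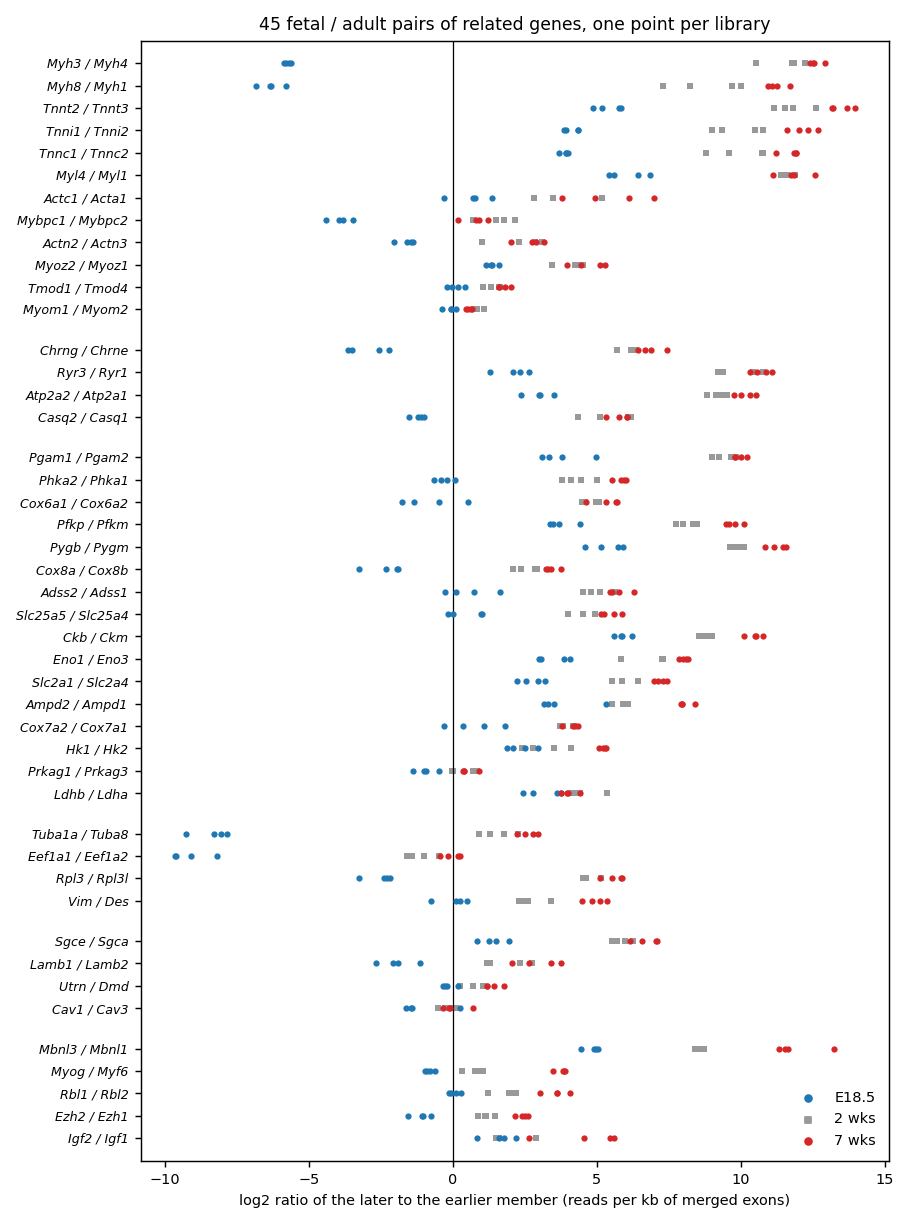
Log2 ratio of the later to the earlier member (reads per kb of merged exons) of 45 of the 47 pairs, grouped by role and ordered by shift, with blue points for the 4 E18.5, grey squares for the 4 libraries at 2 wks and red points for the 4 at 7 wks. Points left of 0 mean that the earlier member had more reads per kb. The shift runs from 18.32 for Myh3/Myh4 to 0.66 for Myom1/Myom2, and the 2 ages overlap in Cav1/Cav3.

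A full swap, with the earlier member ahead in all 4 fetal libraries and the later member ahead in all 4 adult ones, was found in 13 pairs. In 21 others the later member was already ahead in every fetal library and widened its lead, in 13 at least 1 age had libraries on both sides, and in none did the earlier member stay ahead. The 13 were *Myh3*/*Myh4*, *Myh8*/*Myh1*, *Mybpc1*/*Mybpc2*, *Actn2*/*Actn3*, *Chrng*/*Chrne*, *Casq2*/*Casq1*, *Cox8a*/*Cox8b*, *Prkag1*/*Prkag3*, *Rpl3*/*Rpl3l*, *Tuba1a*/*Tuba8*, *Lamb1*/*Lamb2*, *Myog*/*Myf6* and *Ezh2*/*Ezh1*. In 10 of them the 2 members were also called in opposite directions. At 2 wks 12 of the 13 were already on the adult side in all 4 libraries, and *Prkag1*/*Prkag3* had 1 library on the fetal side. Without E18.5 replicates 3 and 4 the count was 15, with *Tmod1*/*Tmod4* and *Rbl1*/*Rbl2* added. Which member is ahead depends on the exon lengths used, while the shift between ages does not. Not divided by length, *Cox7a2* led *Cox7a1* in all 4 fetal libraries (132.8 to 220.8 against 11.1 to 78.7 TMM CPM). *Cox7a1* led in all 4 adult ones (374.7 to 751.0 against 263.1 to 362.2), although the pair was not among the 13. For a single pair, 4 libraries against 4 allow 70 regroupings. Full separation fixes the two-sided exact permutation p at the smallest value this allows, 0.029. Each of the 46 separated pairs had it, so this p restates the separation and adds no support.

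Among the 12 contractile pairs, the thin-filament genes changed in a graded way. *Tnni1*, the slow troponin I, fell from 72.4, 212.5, 106.1 and 92.6 TMM CPM at E18.5 to 2.59, 6.32, 7.12 and 4.14 at 7 wks, a log2 fold change of -4.58 ± 0.48. *Tnni2*, the fast troponin I, rose from 674.5, 1415, 736.0 and 862.4 to 7854, 9113, 13471 and 9756, a log2 fold change of 3.45 ± 0.28. Per kilobase of exon the fast gene was already ahead in every fetal library (log2 ratio 3.85 to 4.34), and its lead widened to between 11.61 and 12.68. *Tnnt2*, the cardiac and embryonic troponin T, and *Tnnc1*, the slow troponin C, fell by 4.83 and 4.53 on the log2 scale, while their fast relatives *Tnnt3* and *Tnnc2* rose by 3.22 and 3.31. *Myl4*, the embryonic light chain, fell by 3.58 and *Myl1*, the fast light chain, rose by 2.16.

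Other contractile pairs shifted because one member grew faster. *Mybpc1* and *Mybpc2*, slow and fast forms of myosin-binding protein C, were both higher at 7 wks, by 0.74 ± 0.30 and 5.38 ± 0.26, and the edgeR Benjamini-Hochberg adjusted p of *Mybpc1* was 0.0376. Scaled to library totals the *Mybpc1* difference was -0.53, whereas the log2 ratio, which no scaling changes, moved from -4.41, -3.46, -3.97 and -3.83 to 0.79, 0.16, 0.89 and 1.21. *Actn2* and *Actn3*, the Z-disc actinins of all fibres and of fast fibres, rose by 1.4 and 5.68 and crossed in every library. *Actc1*, the cardiac actin of fetal muscle, was not called, with 3483, 4205, 2500 and 2925 TMM CPM at E18.5 and 3611, 1872, 682.7 and 900.4 at 7 wks. Replicate 1 of 7 wks lay within the fetal range of *Actc1* and the other 3 lay below it. *Acta1*, the skeletal actin, rose from 1810, 6940, 2629 and 3162 to 31836, 36755, 55492 and 40008. *Actc1* and *Acta1* are close in sequence, so reads that fit both may have been left out or shared.

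The acetylcholine receptor of the neuromuscular junction changes one of its subunits around birth, from gamma (*Chrng*) to epsilon (*Chrne*). *Chrng* stood at 25.9, 61.3, 44.6 and 27.1 TMM CPM at E18.5 and at 0.321, 0.528, 0.766 and 0.627 at 7 wks. *Chrne* stood at 1.84, 2.06, 1.63 and 2.47 at E18.5 and at 24.3, 26.4, 28.3 and 27.6 at 7 wks. The 2 genes thus traded places in all 8 libraries, and *Chrne* was higher still at 2 wks, at 32.2 to 71.5. The log2 fold changes were -6.13 ± 0.39 and 3.74 ± 0.25 (edgeR, Benjamini-Hochberg adjusted p = 1.85e-08 and 3.2e-08). At 7 wks *Chrng* still had counts in every library.

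The promoters of both subunits are shown for the same reason, 250 bases before the RefSeq start (GRCm38.p6), *Chrng* on the + and *Chrne* on the - strand, with capitals for E-boxes (CANNTG) and for the N-box CCGGAA, a run known from genes expressed at the synapse.
Chrng, chr1:87205561-87205810: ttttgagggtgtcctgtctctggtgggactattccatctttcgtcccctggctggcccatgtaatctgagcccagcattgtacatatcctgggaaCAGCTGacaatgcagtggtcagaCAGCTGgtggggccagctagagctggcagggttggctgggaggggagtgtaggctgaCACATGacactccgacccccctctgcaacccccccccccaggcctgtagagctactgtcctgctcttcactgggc
Chrne, chr11:70619195-70619444: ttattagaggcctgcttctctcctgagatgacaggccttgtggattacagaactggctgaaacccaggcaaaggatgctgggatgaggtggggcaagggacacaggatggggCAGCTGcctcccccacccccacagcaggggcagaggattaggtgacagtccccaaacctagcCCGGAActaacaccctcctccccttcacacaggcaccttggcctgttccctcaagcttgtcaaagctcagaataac
The *Chrng* window held 3 E-boxes, 155, 132 and 75 bases before the start, and no N-box. The *Chrne* window held 1 E-box and 1 N-box, the latter 76 bases before the start. CCGGAA in either orientation is found in 12% of all promoters of this length.

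The other members of the junction and of the myogenic programme did not move as a block. Of 20 genes listed, 4 were higher and 12 lower, with a median log2 fold change of -0.81 beside -0.09 for all genes, and 80% of them were called beside 71.4% of all genes. *Mymk* and *Mymx*, whose products fuse myoblasts into fibres, fell by 5.76 and 5.92. *Mymk* went from 31.9, 69.6, 52.7 and 33.8 TMM CPM to 0.802, 1.32, 0.490 and 0.857. *Rapsn* and *Dok7*, which cluster and stabilise the receptor, rose by 2.09 and 1.83. *Chrnb1*, the beta subunit shared by the fetal and adult receptor, was not called, at 62.4, 73.0, 59.5 and 50.7 against 80.5, 79.4, 71.3 and 66.5. *Myod1*, the myogenic regulator, was not called either, at 13 to 27.9 against 12.6 to 27.6. *Myog*, which drives differentiation, fell from 71.6, 119.2, 80.4 and 63.3 to 6.08, 8.17, 8.15 and 6.65, while *Myf6*, the regulator kept in adult fibres, stood at 34.1 to 59.0 and then 82.9 to 107.1. The *Myf6* difference was 1.06 with TMM and -0.22 with scaling to totals, and the ratio of the pair separated in every library.

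Calcium handling and excitability moved one way. All 22 listed genes of excitation-contraction coupling were higher at 7 wks (median log2 fold change 3.38). *Pvalb*, a calcium buffer that speeds relaxation, rose from 75.2, 89.5, 32.5 and 82.7 TMM CPM to 11348, 10734, 14254 and 10417. The potassium channel genes *Kcna7* and *Kcnc4* rose by 7.40 and 5.26. *Sln*, which encodes sarcolipin, an inhibitor of the calcium pump, went from 490.1, 581.6, 437.4 and 509.0 to 1.99, 3.07, 3.77 and 3.17, a log2 fold change of -7.39 ± 0.47 (edgeR, Benjamini-Hochberg adjusted p = 1.93e-08).

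The same system also changed its isoforms, in 5 of 6 pairs by opposite calls. *Casq2*, the cardiac and slow calsequestrin that stores calcium, fell from 1944, 1291, 970.6 and 1284 TMM CPM to 102.6, 126.2, 75.5 and 57.0. *Casq1*, the fast-fibre form, rose from 742.1, 701.0, 485.7 and 602.5 to 6135, 5460, 5382 and 4098. The pair crossed in all 8 libraries. *Ryr3*, a second calcium release channel of young muscle, fell by 4.90 while *Ryr1*, the main channel, rose by 3.68. *Atp2a2*, the slow calcium pump, fell by 2.34 and *Atp2a1*, the fast pump, rose by 4.76. *Scn4a*, the skeletal sodium channel, rose by 4.01.

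**Figure D3:**
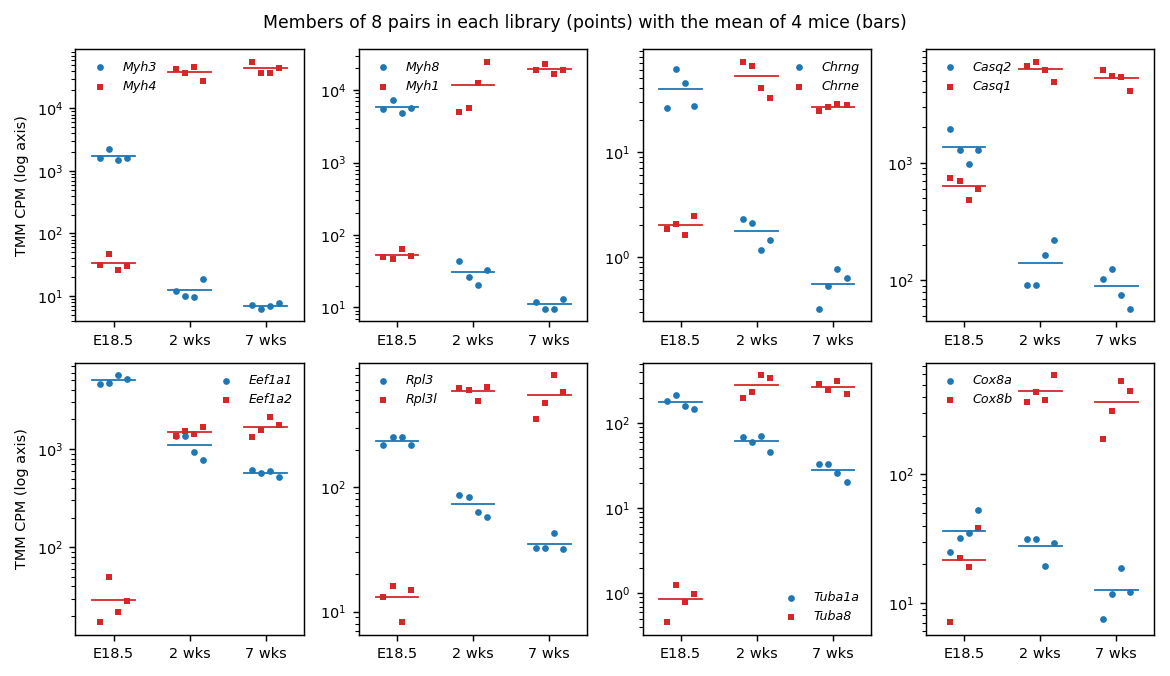
TMM CPM (log axis) of both members of 8 pairs in each library at E18.5, 2 wks and 7 wks, with blue circles for the earlier and red squares for the later member and bars for the mean of 4 mice. In each panel the earlier member is lower and the later member higher at 7 wks than at E18.5 in all libraries, and CPM is not divided by length, so heights compare ages and not genes.

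In 2 pairs of protein synthesis genes the RNA of the earlier member fell and that of the later member rose. *Eef1a1*, the common elongation factor that brings aminoacyl-tRNA to the ribosome, fell from 4563, 4751, 5661 and 5161 TMM CPM to 605.6, 575.4, 595.3 and 518.4. *Eef1a2*, its form in adult muscle and neurons, rose from 17.2, 49.6, 22.0 and 28.3 to 1330, 1555, 2124 and 1767. Neither gene overlapped between the ages. Per kilobase of merged exons the log2 ratio rose from -9.65, -8.18, -9.60 and -9.10 to -0.46, -0.16, 0.24 and 0.17. By that measure the 2 genes met without a swap in all adult libraries. In TMM CPM, not divided by length, *Eef1a2* was behind in all 4 fetal libraries and ahead in all 4 adult ones. *Eef1a1* has many processed copies in the genome, which may have taken or lost reads. *Rpl3*, a protein of the large ribosomal subunit, fell from 218.5, 250.3, 250.4 and 219.0 to 32.5, 32.6, 42.6 and 32.1, and *Rpl3l*, its muscle form, rose from 13, 16.1, 8.20 and 15 to 352.5, 475.0, 791.8 and 577.9. Per kilobase of exon, too, the muscle form was ahead in all 4 adult libraries and the general one in all 4 fetal libraries.

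The cytoskeleton and the membrane followed. *Tuba1a*, the alpha-tubulin of growing cells, stood at 184.9, 213.8, 160.6 and 145.9 TMM CPM at E18.5 and at 33.5, 33.7, 25.9 and 20.7 at 7 wks. *Tuba8*, a tubulin of adult muscle, stood at 0.457, 1.25, 0.790 and 0.977 and then at 293.0, 245.7, 313.6 and 220.1. *Tuba8* had the largest log2 fold change of the cytoskeletal genes in the pairs, 8.26 ± 0.37 (edgeR, Benjamini-Hochberg adjusted p = 1.5e-09). *Vim* and *Des*, the intermediate filaments of young and of differentiated muscle cells, moved by -2.16 and 2.74. *Lamb1*, a laminin chain of basement membranes, fell by 2.22, and *Lamb2*, the chain found at the synapse, rose by 2.46. *Utrn* and *Dmd*, utrophin and dystrophin, moved by -0.77 and 0.78. The *Dmd* value was -0.48 with scaling to totals, while the log2 ratio of the pair lay between -0.35 and 0.19 at E18.5 and between 1.19 and 1.77 at 7 wks. *Cav1* and *Cav3*, caveolins of many cells and of muscle, gave the 1 pair whose ratios overlapped, because E18.5 replicate 2 (0.25) lay inside the adult range of -0.36 to 0.68 (two-sided exact permutation p = 0.11).

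The 16 energy pairs gave 12 opposite calls and 2 swaps. *Pfkp* and *Pfkm*, phosphofructokinases of other tissues and of muscle, moved by -1.48 and 4.48, and *Pygb* and *Pygm*, glycogen phosphorylases of brain and muscle, by -2.21 and 3.69. *Slc2a1*, the general glucose transporter, fell by 0.85, and *Slc2a4*, the one that answers to insulin, rose by 3.62. *Phka1*, the muscle subunit of phosphorylase kinase, rose from 74.2, 51.4, 43.2 and 55.6 TMM CPM to 1313, 1006, 916.0 and 1151, while *Phka2*, the liver subunit, fell by 1.82. *Ckm*, the muscle creatine kinase, rose by 3.94 and *Ckb*, the brain form, was not called. *Prkag3*, the fast-muscle subunit of the energy sensor AMPK, passed *Prkag1* although both were higher with TMM, by 2.67 and 1.24, and *Prkag1* was at -0.04 with scaling to totals.

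Cytochrome c oxidase, the last complex of respiration, exchanged its small subunits. *Cox8a*, the ubiquitous subunit, stood at 25.1, 31.8, 35.2 and 52.6 TMM CPM at E18.5 and at 7.52, 11.8, 18.7 and 12.1 at 7 wks. *Cox8b*, the subunit of muscle and brown fat, stood at 7.06, 22.4, 19.1 and 38 and then at 187.7, 312.9, 533.2 and 442.4. The log2 ratio was -3.25, -1.93, -2.31 and -1.89 in the fetal libraries, so it lay on the fetal side also in replicates 3 and 4, and 3.22, 3.3, 3.41 and 3.77 in the adult ones. *Cox7a1* rose by 4.07 and *Cox6a2* by 5.06, and of their ubiquitous relatives *Cox6a1* fell by 1.15 and *Cox7a2* was higher with TMM (1) and lower with scaling to totals (-0.28). For *Cox7a1*, which brown fat also uses, the 4 fetal values were 11.1, 17.4, 34.3 and 78.7, highest in the 2 libraries with brown fat RNA. Its adult values were 374.7, 640.0, 751.0 and 607.2.

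Most listed genes of energy use rose with these isoforms. Of 20 listed genes of glycolysis and glycogen, 19 were higher and none lower (median log2 fold change 3.02). They were led by *Phkg1* (4.61), *Pfkm* and *Aldoa* (4.31), the muscle aldolase. Outside this list, earlier members of the energy pairs such as *Pfkp*, *Pygb* and *Phka2* were lower. *Gpd1*, the 1 gene not called, had 31.4, 72.3, 568.1 and 859.8 TMM CPM at E18.5, high in the 2 libraries with adipocyte RNA, and 689.6 to 846.3 at 7 wks, and without those libraries all 20 were higher. All 26 listed nuclear genes of the respiratory chain and ATP synthase were higher (median 2.16, or 2.5 without the 2 libraries). The largest rises were of *Ndufs7* (4.04), *Ndufb8* (3.16) and *Uqcrc1* (3.00). *Cox8a* and *Cox6a1*, nuclear genes outside this list, were lower.

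The genes of fatty acid uptake and oxidation depended on 2 libraries. With all libraries 13 of 20 were higher and none lower, with a median log2 fold change of 1.04. Without E18.5 replicates 3 and 4, a choice made after the data were seen, all 20 were higher and the median was 2.40. *Lpl*, which frees fatty acids from blood lipids and is high in fat tissue, was at 310.8 and 216.4 TMM CPM in E18.5 replicates 1 and 2, at 848.3 and 981.7 in replicates 3 and 4, and at 771.6 to 885.8 at 7 wks. *Etfa*, an electron carrier of fatty acid oxidation, was at 160.8, 91.9, 289.4 and 617.3 and then at 302.6 to 393.6. For both genes the adult libraries lay above the 2 fetal libraries without brown fat RNA and not above the highest of the others. Other members lay far below the adult range in all 4 fetal libraries: *Fabp3*, the fatty acid carrier of muscle and heart, rose from 27.3, 36.0, 28.9 and 32.1 to 465.2, 695.1, 805.4 and 625.1, and *Ucp3*, the uncoupling protein of muscle, from 4.37, 4.16, 7.68 and 6.57 to 287.8, 301.9, 237.2 and 466.4. *Pdk4*, which turns fuel use from glucose to fat, rose by 3.39 ± 0.63. With scaling to totals 3 of the 20 were higher and 1 lower.

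**Figure D4:**
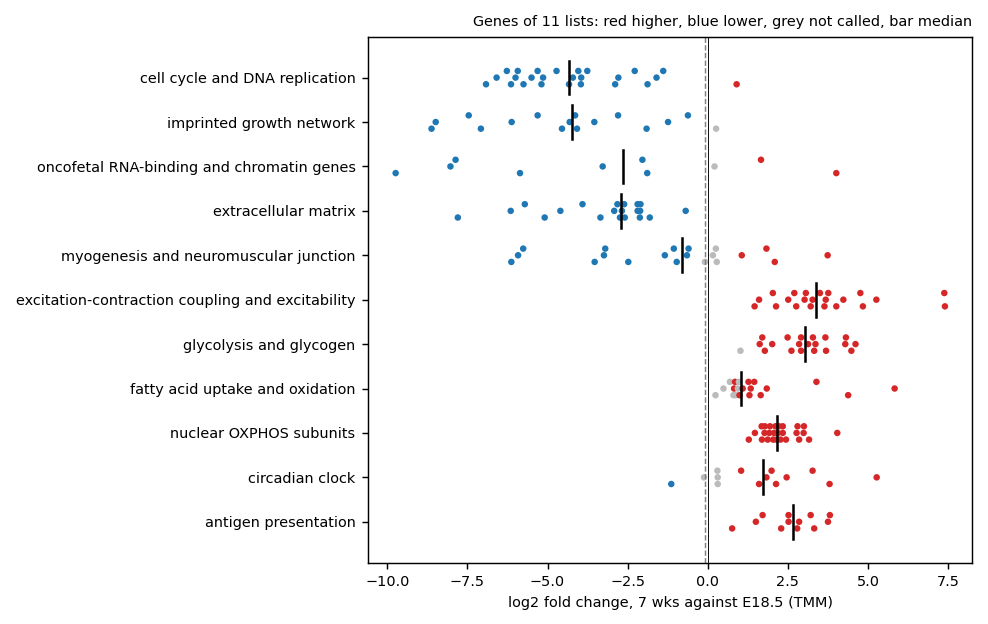
Log2 fold change (7 wks against E18.5, TMM) of each gene of 11 lists, with red for higher, blue for lower and grey for not called, black bars for list medians and a dashed line at the median of all tested genes (-0.09). Proliferation, imprinted, oncofetal and matrix genes lie to the left with medians from -4.33 to -2.66, and excitability and energy genes to the right with medians from 1.04 to 3.38.

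The fetal side was led by growth. Of 25 genes of the cell cycle and DNA replication, 24 were lower at 7 wks (median log2 fold change -4.33). *Bub1*, a mitotic checkpoint kinase, fell by 6.92, *Ccnb1*, cyclin B1, fell by 6.59 and *Top2a*, a topoisomerase of dividing cells, fell by 6.27. *Top2a* stood at 219.2, 157.2, 171.8 and 143.4 TMM CPM at E18.5 and at 4.57, 2.72, 0.980 and 0.775 at 7 wks, so the lowest fetal library lay far above the highest adult one. *Aurka*, another mitotic kinase, was called higher with TMM, at 7.71 to 13.1 and then 16.1 to 24.3 (log2 fold change 0.90 ± 0.23), and its difference was -0.39 with scaling to totals.

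The imprinted growth genes, many of which set fetal growth, mostly fell. Imprinted genes are read mainly from the maternal or the paternal copy in at least some tissues, and the copy read was not measured here. Of 16 listed, 15 were lower (median -4.23) and *Gnas* was not called. *Dlk1* went from 294.2, 557.9, 323.0 and 269.7 TMM CPM to 0.822, 0.543, 1.32 and 0.989, and *Peg10* from 881.1, 581.8, 409.1 and 452.5 to 2.41, 1.65, 1.24 and 1.2. *Plagl1*, a zinc-finger factor of this network, fell by 7.46, *Mest* by 7.08 and *Zim1* by 5.31. These 3, with *Nrk* (-8.97), *Capn6* (-6.22) and the matrix genes *Postn* and *Vcan*, made up 7 of the 10 largest falls among genes whose log2 CPM averaged 5 or more over the 8 libraries, beside *Myh8*, *Myh3* and *Sln*. *Dlk1*, *Peg10* and *Fbn2*, which fell further than some of these, averaged under that minimum. *Igf2* and *Igf1*, the fetal and the postnatal insulin-like growth factor, were both lower, by 6.12 and 3.19, the 1 pair in which both members fell. *Igf1* stood at 397.1, 227.9, 227.7 and 206.9 and then at 50.1, 34.4, 18.2 and 13.1, and since *Igf2* fell further the ratio still moved towards *Igf1*.

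All 20 listed matrix genes were lower, with a median of -2.71, beside 37.1% of all tested genes lower and a median of -0.09. *Fbn2*, the fibrillin of developing tissues, went from 154.7, 219.3, 138.2 and 118.3 TMM CPM to 1.46, 0.450, 0.505 and 0.462. *Postn*, periostin, went from 3528, 2416, 2542 and 1889 to 63.3, 36.6, 24.8 and 21.4, and *Vcan*, versican, fell by 5.71. The highest adult value of all 3 came from 7 wks replicate 1, the library with the most matrix RNA, and without it 20 of the 20 matrix genes were still called. Beside these genes, mast cell markers were lower (5 of 6, summed level 392.2 to 876.3 at E18.5 and 10.2 to 24.3 at 7 wks), as were 6 of 7 macrophage markers (186.5 to 225.2 and 24.9 to 81.1) and 6 of 7 red blood cell markers (241.9 to 1026 and 91.9 to 129.7). Of 7 fibroblast markers 5 were lower and 2 higher, and of 7 Schwann cell markers 4 were lower and 1 higher. Of 7 endothelium markers 3 were higher and none lower. Of 7 smooth muscle and pericyte markers 4 were higher and 2 lower. The part of cell composition in the fall of the matrix genes was not tested.

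Some regulators belong to the fetal state of many tissues. Of 10 oncofetal RNA-binding and chromatin genes, 7 were lower and 2 higher. *Igf2bp1*, which binds *Igf2* and other messages, went from 24.1, 25.8, 21.8 and 17.8 TMM CPM to 0.0201, 0.0310, 0.0306 and 0.0165, and *Hmga2*, a chromatin protein, from 17.1, 11.1, 7.99 and 9.13 to 0.120, 0.0155, 0.0306 and 0.0165. *Lin28b*, which blocks let-7, was weakly present at E18.5 (0.224 to 0.374) and had no count at 7 wks. *Sall4* and *Hmga1*, usually called fetal genes too, were higher at 7 wks, *Sall4* from 0.0277, 0.0348, 0.185 and 0.0399 to 1.38, 1.2, 1.23 and 1.04. *Ezh2* and *Ezh1*, the Polycomb methyltransferases of dividing and of resting cells, stood at 40 to 56.4 and 24.0 to 31.8 at E18.5 and at 7.03 to 9.21 and 52.5 to 60.9 at 7 wks. The pair crossed in every library, although the *Ezh1* difference alone was 1.04 with TMM and -0.24 with scaling to totals. *Mbnl3* and *Mbnl1*, splicing regulators of young and of mature muscle, moved by -5.03 and 2.00, and *Rbl1* and *Rbl2*, relatives of the retinoblastoma protein, by -2.41 and 1.1 (-0.18 for *Rbl2* with scaling to totals).

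Genes present at one age and near absent at the other were taken by their levels: at least 1 TMM CPM in all 4 libraries of one age and under 0.1 in all 4 of the other. These values chose the sets, so they are described without a test. The fetal-only set held 62 genes, 41 of them protein-coding, 11 long non-coding RNAs and 10 of other kinds or absent from GENCODE. The adult-only set held 41, of which 17 were protein-coding and 20 long non-coding. Most were low, with a median of 2.40 TMM CPM where present in the fetal-only set and 2.87 in the adult-only set. At most 3 counts were found in every adult library for 41 of the 62, and in every fetal library for 6 of the 41. With CPM taken on library totals the sets held 193 and 14 genes, and without E18.5 replicates 3 and 4 they held 104 and 55.

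The most abundant fetal-only gene was *Magel2*, an imprinted gene of the MAGE family, with 31.0, 50.3, 30.5 and 33.9 TMM CPM at E18.5 and 0.0602, 0, 0.0613 and 0.0330 at 7 wks. *Igf2bp1* came next, and then *Trpm5*, a cation channel best known from taste cells, with 19.5, 27.5, 20.8 and 16.0 and then 0.0401, 0, 0.0153 and 0.0824. These 3 stood apart, since no other protein-coding gene of the set averaged above 6.31. That was *Gipr*, the receptor of the gut hormone GIP, at 6.37, 9.15, 2.92 and 6.82. *Epha5*, an ephrin receptor that guides axons, averaged 6.06 and *Vwc2*, a secreted protein that binds BMPs, 5.61. *Fanca*, of the Fanconi DNA repair complex, averaged 4.47, *Cstdc5* 4.35, *Gpr17*, an orphan receptor, 4.09 and *Ripply1*, a transcriptional repressor that acts in somite formation, 4.01. The limb gene *Tbx5* was also in the set. The most abundant members outside the protein-coding genes were *Gm12408* at 8.23, *4833412C05Rik* at 3.26 and the miRNA gene *Mir483* at 3.24. Named after their values were seen, the 3 genes with no count in any adult library were *Npy2r*, a receptor of neuropeptide Y, *Mir335* and *Gm44171*. Against a floor of 3 counts in each library, *Npy2r* was at least 48.2-fold higher at E18.5.

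**Figure D5:**
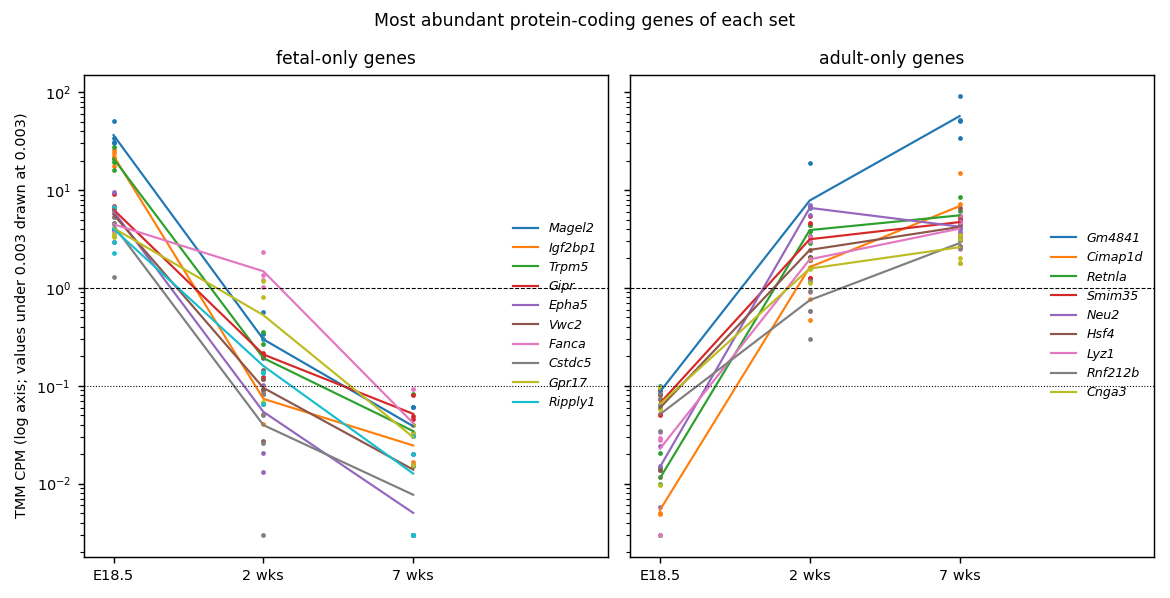
TMM CPM (log axis) of the 10 most abundant protein-coding genes of the fetal-only set and 9 of the 10 most abundant of the adult-only set at E18.5, 2 wks and 7 wks, with points for libraries, lines through the means of 4 mice, and dashed and dotted lines at 1 and 0.1 TMM CPM, the limits of the rule. At 2 wks the fetal-only means other than Fanca are below 1, while 8 of the 9 adult-only means are above 1 at 2 wks and Rnf212b is below it.

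Levels at 2 wks, which the rule did not use, showed where each set stood on the way. Of the 62 fetal-only genes, 17 were already under 0.1 TMM CPM in all 4 libraries at 2 wks, 1 (*Fanca*, at 1.21, 1.01, 2.34 and 1.36) was still at 1 or more in all 4, and 44 were between. The median of their mean level at 2 wks was 0.0956. Of the 41 adult-only genes, 17 were at 1 or more in all 4 libraries at 2 wks, none was under 0.1 in all 4, and 24 were between, with a median of 1.58. *Neu2*, a sialidase, was highest at 2 wks, at 6.87, 7.09, 5.60 and 6.74, and stood at 4.87, 3.77, 4.26 and 4.02 at 7 wks.

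Among the fetal-only genes were 4 miRNA genes, *Mir483*, *Mir434*, *Mir351* and *Mir335*, the last 3 named after their values were seen. Their mature forms are shown so that the genes can be told apart by sequence. The sequences are from RefSeq (GRCm38.p6), 5′ to 3′, with the seed (bases 2 to 8) in capitals.
mmu-miR-483-3p (chr7:142654932-142654952, -): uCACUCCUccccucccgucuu
mmu-miR-483-5p (chr7:142654968-142654989, -): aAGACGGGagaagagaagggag
mmu-miR-351-3p (chrX:53053276-53053296, -): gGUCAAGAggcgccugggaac
mmu-miR-351-5p (chrX:53053315-53053338, -): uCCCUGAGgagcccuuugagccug
mmu-miR-434-5p (chr12:109594528-109594549, +): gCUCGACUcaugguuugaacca
mmu-miR-434-3p (chr12:109594565-109594586, +): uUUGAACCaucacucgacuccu
mmu-miR-335-5p (chr6:30741314-30741336, +): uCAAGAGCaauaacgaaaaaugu
mmu-miR-335-3p (chr6:30741354-30741375, +): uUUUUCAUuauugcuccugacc
No 2 of the 8 share a seed. The seed of miR-351-5p is held by mature forms of 6 miRNA genes, whereas each of the other 7 is found in 1. *Mir483*, inside *Igf2* on chromosome 7, had 1.56, 5.92, 2.54 and 2.96 TMM CPM at E18.5, and 0, 0.0155, 0.0153 and 0.0330 at 7 wks. *Mir335* lies inside *Mest*, *Mir351* inside 2 overlapping genes both called *Mir503hg*, of which the lower (1.24 to 2.61 at E18.5) was itself fetal-only, and *Mir434* opposite *Rtl1*. The libraries were made from polyadenylated RNA, so the mature miRNAs were not measured. Reads of host, precursor or, since the strand setting is not given, opposite transcripts such as *Rtl1* cannot be told apart here.

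On the adult side *Gm4841* led the set, with 0.0901, 0.0985, 0.0634 and 0.0947 TMM CPM at E18.5 and 90.4, 34.3, 51.9 and 51.0 at 7 wks, so that it lay just inside the lower limit in the fetal libraries. *Cimap1d* went from at most 0.0116 to 3.49, 1.79, 7.23 and 14.9, and *Retnla*, a secreted resistin-like protein, from at most 0.0208 to 8.42, 4.11, 6.08 and 3.43. Next by mean level at 7 wks were *Smim35* at 4.70, *Neu2* at 4.23, *Hsf4*, a heat shock transcription factor, at 4.20 and *Lyz1*, a lysozyme, at 4.04. *Rnf212b* and *Cnga3*, a cyclic nucleotide-gated channel, averaged 2.87 and 2.61. The leading non-coding genes were *Gm27168*, *Gm47015* and *Gm26740*, at 13.2, 11.1 and 8.86 on average. *Gm27168* had 8.32, 14.9, 15.9 and 13.9 at 7 wks, at most 0.0139 at E18.5 and at most 0.392 at 2 wks. *Helt*, a bHLH repressor, and *BC048679* had no count in any fetal library and were at least 141.0-fold and 130.5-fold higher at 7 wks (named after their values were seen). Of the 41 genes, 10 (24.4%) lie on chromosome 10, the most of any chromosome and picked out after the counts were seen. It holds 4.74% of all tested genes, a share not matched for the many non-coding genes of the set, and the difference was not tested.

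Other lists lie outside the fibre and its fuel. All 12 listed genes of antigen presentation were higher (median log2 fold change 2.66). They were led by the class II pathway genes *H2-Ab1* (3.81), *Cd74* (3.75) and *H2-Eb1* (3.32). *Cd74* stood at 0.651, 2.94, 3.16 and 2.05 TMM CPM at E18.5 and 33.5, 22.8, 40.2 and 22.4 at 7 wks, although 6 of the 7 macrophage markers moved the other way. Of 14 clock genes 9 were higher and 1 lower (median 1.71), so 71.4% of them were called, the same share as of all tested genes. *Nr1d1*, the clock repressor REV-ERB alpha, rose from 4.48, 7.99, 5.67 and 6.90 to 199.3, 230.6, 289.5 and 247.7, *Bhlhe41* by 3.80 and *Dbp* by 3.27, while *Per2* fell by 1.14 and *Clock* was not called. Without E18.5 replicates 3 and 4, 8 clock genes were higher and none lower. With scaling to totals 7 clock genes were higher and 5 lower. The hour at which tissue was taken is not given in the sources used here, and age and hour cannot be told apart.

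Further large rises were found among genes above the same minimum, an average log2 CPM of 5. *Mb*, myoglobin, which stores oxygen, rose from 7.19, 13.1, 18.1 and 21.2 TMM CPM to 6201, 10668, 12760 and 9603, a log2 fold change of 9.36 ± 0.85 (edgeR, Benjamini-Hochberg adjusted p = 4.01e-07). It was still at 654.8 and 826.0 in 2 of the libraries at 2 wks and at 4086 and 6381 in the other 2. *Tcap*, a titin cap protein of the Z-disc, rose by 6.80, the sodium channel subunit *Scn4b* by 7.20, and *2310065F04Rik* by 6.50. With *Myh4*, *Myh1*, *Pvalb*, *Eef1a2* and *Ucp3* these were 9 of the 10 largest rises above that minimum, under which *Tuba8* (8.26) and *Kcna7* (7.40) lay.

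The genes the study was built around were also counted per gene. *Dnm2*, the membrane-fission GTPase dynamin 2, stood at 24.6, 45.7, 39.6 and 38.6 TMM CPM at E18.5 and 60.1, 68.9, 69.7 and 70.4 at 7 wks, a log2 fold change of 0.86 ± 0.17 that was -0.43 with scaling to totals and 0.11 with the trend on GC content removed. *Bin1*, its partner at the T-tubule, was at 250.8 to 425.6 and then 584.0 to 797.6, with 1.14 and -0.14 on the 2 scales. *Mtm1*, the phosphatase myotubularin, had 1.06 and -0.22, and *Dnm3* 0.97 and -0.30. *Dnm1* was lower on both, by 1.46 and 2.74. The direction for *Dnm2*, *Bin1*, *Mtm1* and *Dnm3* thus turned with the scaling.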

How the data were processed

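RNA of the TA of 12 mice, 4 per age, was sequenced after polyA selection. The authors trimmed reads with cutadapt 1.10, aligned them with STAR 2.5.3a and counted them per gene with HTSeq 0.6.1p1 (versions per the submitters' processing notes). The deposited values are raw counts per gene, not normalised. The labels name mm10 and the study's methods GRCm39, so no coordinate was taken from the count table, and the strand setting of the counting is not given in the sources used here.

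Groups came from the labels. Genes passing filterByExpr (19276) were fitted over all 12 libraries with edgeR 4.0.16 (TMM, quasi-likelihood) in R 4.3.3, and the contrast of 7 wks against E18.5 was adjusted by Benjamini-Hochberg over all of them and called at 0.05. Values after ± are SE. The p-values measure the spread between these mice. Pair ratios used merged exons of GENCODE vM39 and 0.5 added to each count. Genes were present from 1 and absent under 0.1 TMM CPM. A gene at 0 was given a floor of 3 counts in each library, which covers counting error only. The fit was tested on simulated counts, with 191 genes changed 2-fold, of which 62 were called, and 195 changed 4-fold, of which 193 were called. Unchanged genes called were 3 and 16 in these 2 runs, and 0 in a run with no change. The simulation used 1 common dispersion and far fewer changed genes than were called here, so it does not measure errors in this comparison. Replicates differed by more than counting noise, so none was a copy. Of the genes, 3973 had no GENCODE identifier (0.0394% of counts).

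Members, pairs and gene lists were chosen with earlier results of these data known. Open to naming were both members of each pair, the 3 largest rises and falls of each list with examples not called, the leading fetal-only and adult-only genes, the 10 largest rises and falls, markers, and *Dnm2*, *Dnm1*, *Dnm3*, *Bin1* and *Mtm1*. A few of these genes are not reported here but are kept in the counts of pairs and sets. Alternatives were DESeq2 1.42.0, a test beyond a 2-fold change, other filters, scaling to totals, a GC correction, a fit of the 8 libraries alone, a replicate block, other limits for the sets and leaving out each library. Leaving out E18.5 replicates 3 and 4 was added after seeing the data.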

Additional observations from a re-analysis of the deposited data

Results flagged for a closer look

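Each group of 4 libraries was searched for a library far from the other 3 among the named genes, in 220 sets, and 11 were found where chance flags about 1 in 20 (11). At E18.5, replicate 1 stood apart for *Nrk* (1275 TMM CPM, others 615.4 to 684.1), *Zim1* (904.8, others 474.0 to 526.2), *Igf1* (397.1, others 206.9 to 227.9), *Ampd2* (9.25, others 21.5 to 23.8) and *Dnm3* (5.44, others 3.74 to 3.89). Replicate 2 stood apart for *Myh3* (2281, others 1506 to 1617) and *Bin1* (425.6, others 250.8 to 265.1), and replicate 4 for *Hk2* (143.4, others 93.5 to 96.9). At 7 wks, replicate 1 was low for *Dnm2* (60.1, others 68.9 to 70.4) and replicate 2 for *Atp2a1* (38753, others 44283 to 45160), and replicate 3 was high for *Rpl3* (42.6, others 32.1 to 32.6).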

How the results depend on the processing

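Tested against a 2-fold change, 7574 genes passed (3460 higher, 4114 lower), with 10 of the myogenesis and junction genes and 4 of the fatty acid genes. Scaled to totals, 2293 were higher and 13296 lower, and 4 fatty acid genes were called. Of these 20 genes 8 were called with only 8 libraries fitted and 20 without E18.5 replicates 3 and 4. Of the oncofetal genes 4 were called with at least 10 counts in every library. The fetal-only set held 193 genes with CPM on totals, 154 with a presence limit of 0.5 TMM CPM, 36 with an absence limit of 0.05, 104 without E18.5 replicates 3 and 4, and 63 to 95 without each library (95 without 7 wks replicate 1). The adult-only set held 14, 68 and 15 under the first 3, and 42 to 46 without each library. Scaling to totals turned the direction of the called genes *Aurka* (-0.39), *Mybpc1* (-0.53), *Cox7a2* (-0.28), *Prkag1* (-0.04), *Dmd* (-0.48), *Myf6* (-0.22), *Ezh1* (-0.24), *Rbl2* (-0.18), *Dnm2* (-0.43), *Dnm3* (-0.30), *Bin1* (-0.14) and *Mtm1* (-0.22), and of *Cav3* (-0.91), *Gpd1* (-0.27), *Lpl* (-0.79), *Etfa* (-1.03), *Myod1* (-1.13), *Chrnb1* (-1.0), *Gnas* (-1.02) and *Clock* (-0.96), which were not called. Among genes not called, *Myoz2* turned with the GC correction (0.23), with GC and block (0.17) and without single libraries (from -0.27 to 0.09), *Cav3* with the GC correction (-0.25) and with GC and block (-0.24), and *Myod1* (-0.66), *Chrnb1* (-0.04) and *Gnas* (-0.53) with the GC correction. The cause was not tested.

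Same-numbered libraries did not all deviate together (correlations 0.514, -0.259, 0.223 and 0.146), so the numbers were not read as pairs. With the replicate block 6592 genes were higher and 7019 lower. With 4 mice per age, differences of 2-fold or less may be missed.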
